A study of Bos taurus with 10 samples.

Results

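The class II genes of the cattle major histocompatibility complex, called BoLA, were followed through the white blood cells of 10 Holstein heifers. The set holds 4 of the 27570 gene IDs in the deposited count tables: a DQ alpha chain gene (ENSBTAG00000009656), 2 DQ beta chain genes (ENSBTAG00000038128 and ENSBTAG00000021077, here called the first and the second DQ beta ID) and BOLA-DRB3 (ENSBTAG00000013919). They were chosen from earlier results on these libraries, in which single heifers lacked DQ counts that were plentiful in the others, so the levels of individual heifers are given as a description and are not tested. The names come from that choice and not from the files, which give Ensembl IDs alone, and no table used here pairs the IDs with symbols (0 matched). All 4 IDs were found, and all 4 were among the 14165 IDs that passed the low-count filter.

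All heifers had never calved, and each received a fresh embryo made by in vitro fertilisation. Pregnancy was diagnosed on day 21 after transfer, and 5 heifers were recorded as pregnant and 5 as non-pregnant. Each gave 1 library from peripheral white blood cells, with between 14146666 and 22146290 counts. The heifers' age, the day of blood sampling and blood cell counts were not stated in the labels used. Replicate numbers only name the animals. Markers of the leukocyte types were not analysed here because they need gene names, so the labelled cell mixture was not checked against them.

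Class II molecules are pairs of an alpha and a beta chain on the surface of antigen-presenting cells such as B cells, monocytes and dendritic cells, where they show peptides from engulfed material to CD4+ T cells. In cattle the classical molecules are DR and DQ. DR pairs a nearly constant alpha chain with a highly variable beta chain, mainly encoded by DRB3. In DQ both chains vary, and cattle haplotypes differ in how many DQ genes they carry. The RefSeq gene table of assembly ARS-UCD2.0 lists BOLA-DQA2, BOLA-DQB, BOLA-DQA5, BOLA-DQB1, a further DQ alpha gene (LOC100848815) and BOLA-DRB3 in that order on one chromosome with 0 other genes between them. Which of the listed DQ genes each Ensembl ID stands for was not resolved. A count of 0 means that no read was assigned to that gene model of the reference used by the authors, ARS-UCD1.2, and genotypes were not analysed here.

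The DQ alpha ID, for a chain that pairs with a DQ beta chain, was abundant in 8 heifers and had 0 counts in 2. In pregnant heifers 1 to 5 its level was 148, 198, 140.0, 181 and 307 CPM. CPM is the count as a rate per fixed amount of library, after scaling of the library sizes by TMM (trimmed mean of M values). In non-pregnant heifers 1 to 5 it was 414, 271, 0, 211 and 0 CPM. The non-pregnant group thus held the highest level and both zeros, and the pregnant values lay between. The counts behind the pregnant levels ran from 2274 to 5703, and those of the 3 non-pregnant heifers with reads from 3208 to 8667. The limit of 3 counts per library that a count of 0 allows was 0.193 CPM in non-pregnant heifer 3 and 0.163 CPM in non-pregnant heifer 5. The upper ends of the two-sided 95% Poisson intervals at 0 counts were slightly higher, 0.237 and 0.201 CPM. Both cover counting error only.

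The first DQ beta ID had its zeros in the same animals. It stood at 40.8, 79.3, 73.9, 73.9 and 84.0 CPM in pregnant heifers 1 to 5. In non-pregnant heifers 1 to 5 it stood at 147, 87.7, 0, 73.7 and 0 CPM. Non-pregnant heifer 1 was again the highest of all 10, while pregnant heifer 1 was the lowest with reads. Apart from these 2, the 6 other heifers with reads lay in a narrow band from 73.7 to 87.7 CPM, and each neighbour in their order had an overlapping Poisson interval.

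The second DQ beta ID fell to a trace in those 2 heifers and was never without counts. It stood at 27.7, 33.8, 45.9, 14.3 and 59.3 CPM in pregnant heifers 1 to 5. In non-pregnant heifers 1 to 5 it stood at 55.5, 29.7, 0.773, 22.2 and 0.762 CPM. Non-pregnant heifers 3 and 5 held 12 and 14 counts, which is above the limit of 3 counts. Their 95% Poisson intervals ran from 0.399 to 1.35 CPM and from 0.417 to 1.28 CPM. The lowest of the other 8 heifers, pregnant heifer 4 with 286 counts, was 18.5-fold above non-pregnant heifer 3 (95% interval of the lower count, 10.6 to 35.7) and 18.7-fold above non-pregnant heifer 5 (11.2 to 34.2). The 3 DQ IDs were thus low together, and no DQ ID of the set was high where another was at 0. Reads from near-identical gene copies may be split or dropped by the counting, so how the counts divide between the DQ beta IDs is uncertain.

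DRB3 encodes the DR beta chain and is the class II gene most often typed in cattle. It had many counts in every library, from 12712 to 35589. Its level was 875, 1234, 1134, 1035 and 1915 CPM in pregnant heifers 1 to 5. In non-pregnant heifers 1 to 5 it was 1183, 1553, 1002, 837 and 1111 CPM. The 2 heifers without DQ alpha reads had ordinary DRB3 levels, ranking 8 and 6 from the highest of 10. Their library totals were 14146666 counts, the lowest of the 10, and 17312830 counts, the rank 5 total. For differences in DRB3 level between heifers, fewer class II-bearing cells and less RNA per cell cannot be told apart in bulk white blood cells.

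**Figure D1:**
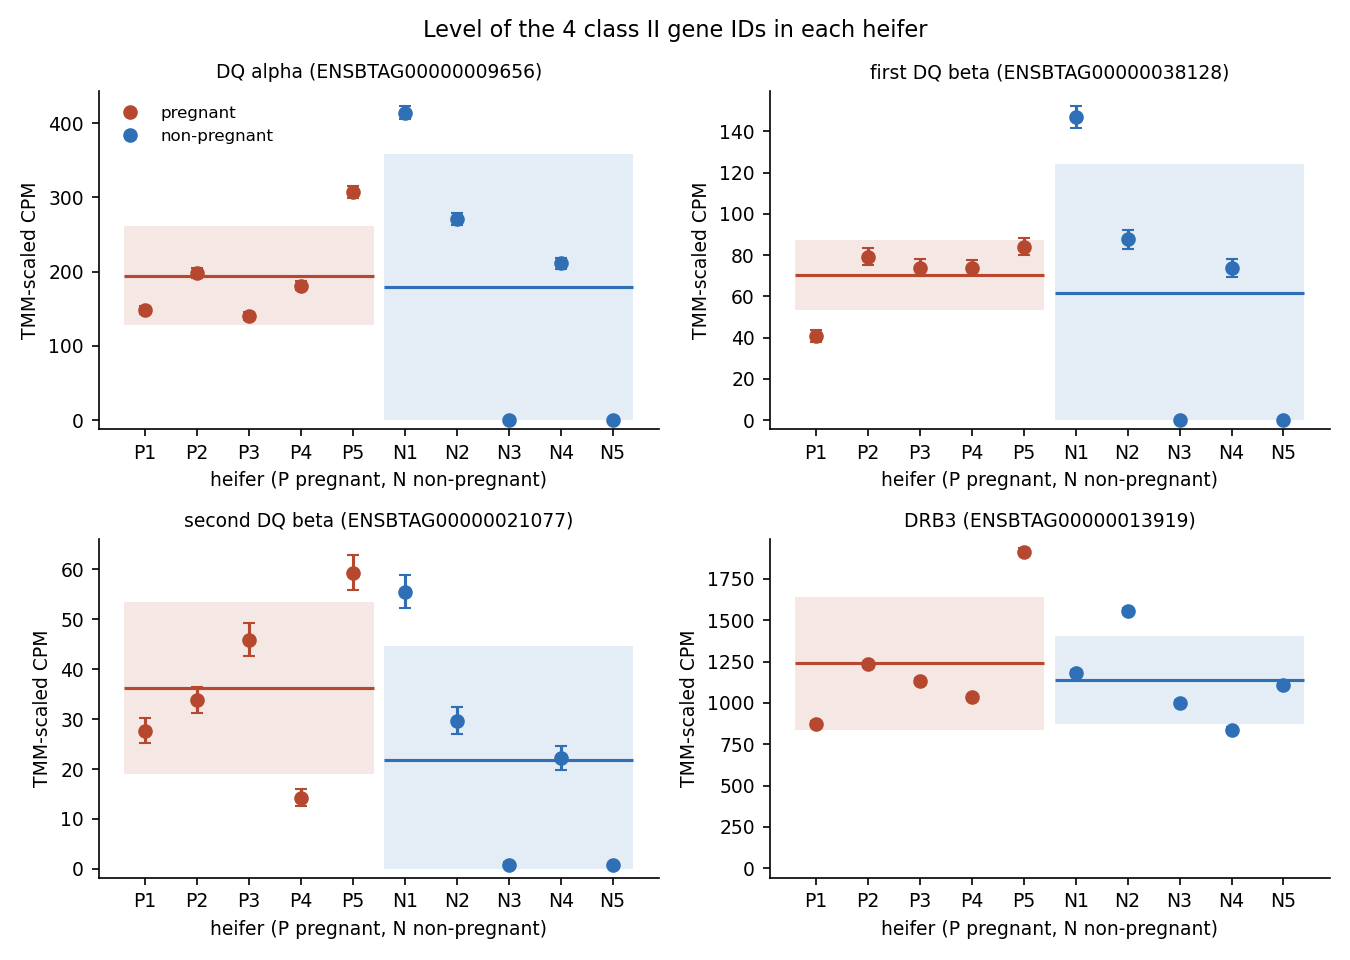
Level of each ID (TMM-scaled CPM, linear axis) in pregnant heifers P1 to P5 and non-pregnant heifers N1 to N5; points are libraries with 95% Poisson intervals, lines are group means and bands are 1 SD of the 5 animals, drawn no lower than 0. N3 and N5 sit at 0 for DQ alpha and the first DQ beta ID and under 0.8 CPM for the second, and within the range of the other heifers for DRB3.

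The order of the heifers differed between the IDs. Non-pregnant heifer 1 ranked highest for DQ alpha and the first DQ beta ID, and pregnant heifer 5 for the second DQ beta ID and DRB3. By exact Poisson intervals, which cover counting error only, 1 of the 9 pairs of neighbours in the order overlapped for DRB3 (pregnant heifer 3 and non-pregnant heifer 5). For DQ alpha 3 pairs overlapped, for the first DQ beta ID 6 and for the second DQ beta ID 4, each time including the pair of low heifers. Among the 8 heifers with reads, the highest level over the lowest was 2.96 for DQ alpha. Over all 10 heifers it was 77.8 for the second DQ beta ID and 2.29 for DRB3.

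Levels of the 4 IDs were also set against each other among the 8 heifers with DQ alpha reads. Across these 8, Pearson's r of log2 CPM was 0.82 and Spearman's rho 0.74 for DQ alpha with the first DQ beta ID. For DQ alpha with the second DQ beta ID r was 0.48 and rho 0.45, and with DRB3 r was 0.54 and rho 0.52. The second DQ beta ID had r = 0.45 and rho = 0.69 with the first, and r = 0.58 and rho = 0.71 with DRB3. The first DQ beta ID with DRB3 had r = 0.43 and rho = 0.81, so the pair that ranks highest by r is not the one that ranks highest by rho. These values describe 8 libraries in which the levels of all IDs share a library and its scaling, and the differences between them were not tested.

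**Figure D2:**
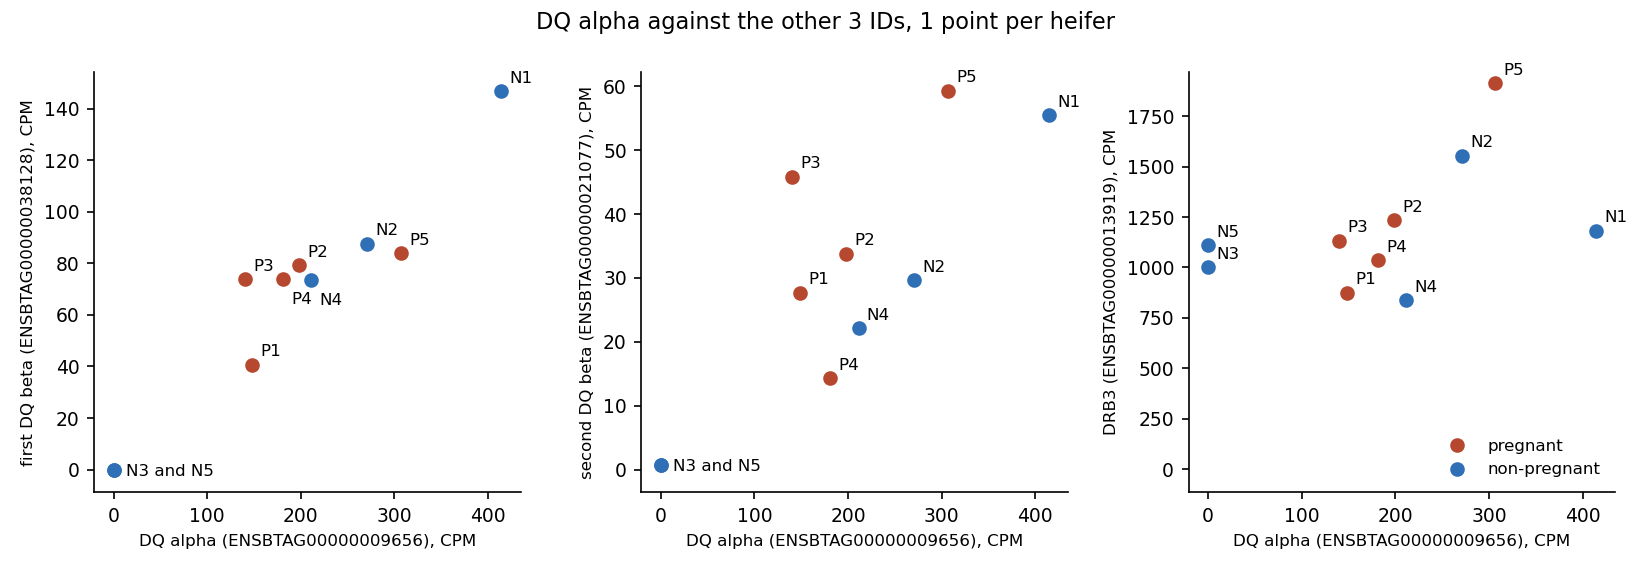
Level of DQ alpha (CPM, x axis) against the first DQ beta ID, the second DQ beta ID and DRB3 (CPM, y axes), 1 point per heifer, P pregnant and N non-pregnant. N3 and N5 lie at the origin in the left panel and near it in the middle panel, while in the right panel they stand at 1002 and 1111 CPM of DRB3.

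The background for this pattern was counted over all tested IDs. In 4 of the 14165 (0.0282%), each library was either at no more than 3 counts or at 5 CPM and above, and 2 or more libraries fell on each side. DQ alpha and the first DQ beta ID are 2 of these 4, and they were chosen on this pattern, so nothing is read from their presence. Among the 3872 IDs with a median of at least 50 CPM, 2 had a library with 0 counts, and both are the members just named. Among the 6901 IDs with a median of at least 20 CPM it was again these 2.

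The SD of log2 CPM over the 10 heifers was 4.63 for DQ alpha, the largest of all 14165 IDs, and 4.01 for the first DQ beta ID, the next largest. It was 2.29 for the second DQ beta ID, at rank 20. The median over all tested IDs was 0.34. For IDs at 0 in some libraries this SD depends on the prior count of 2. The DQ members were chosen for such differences between heifers, so nothing is read from their ranks. DRB3 lay inside the bulk of IDs, with an SD of 0.36, at or above that of 53.0% of all tested IDs and of 77.3% of the 185 IDs within 1 log2 unit of its mean level.

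**Figure D3:**
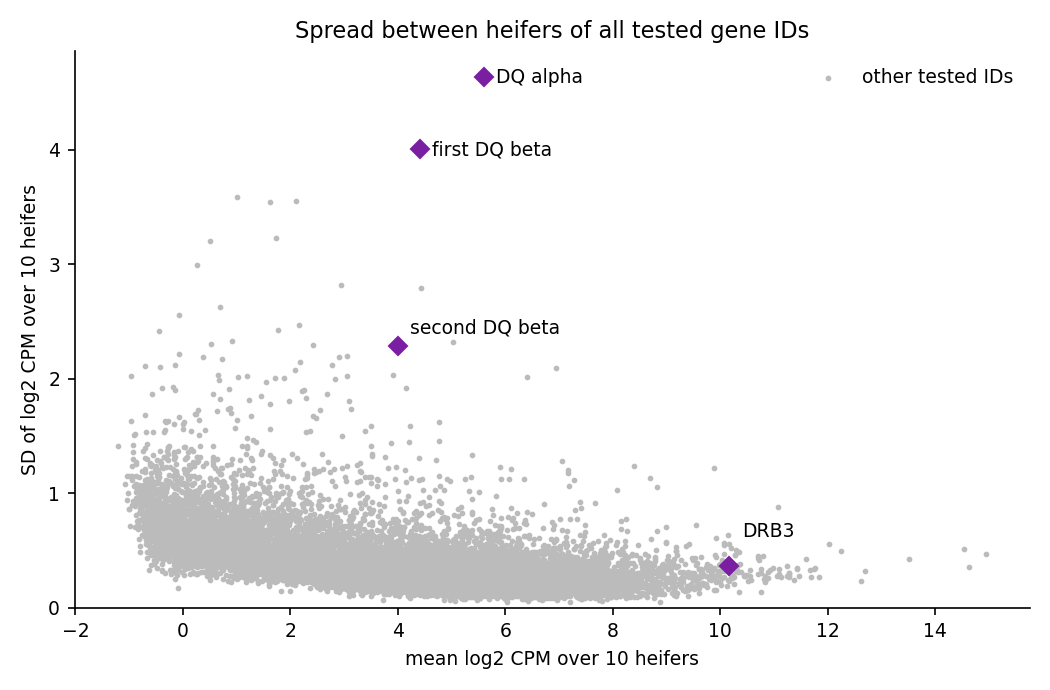
SD of log2 CPM over the 10 heifers (y axis) against mean log2 CPM (x axis) for the 14165 tested IDs; grey points are IDs and diamonds are the 4 members. DQ alpha (4.63) and the first DQ beta ID (4.01) lie above every other ID, and DRB3 (0.36) lies within the cloud. The DQ members were chosen for differences between heifers, so their height is description.

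The low heifers were then searched for other IDs with the same pattern. These 2 heifers were picked by their 0 counts of DQ alpha, and the DQ members were chosen on such levels. Nothing is therefore read from the search finding the members. An ID at or under 3 counts in non-pregnant heifers 3 and 5 and at 1 CPM or more in each of the other 8 was found 2 times in 14165, as DQ alpha and the first DQ beta ID. With the looser condition of a level at least 10-fold lower in both than in each other heifer, and at least 10 counts in each of those, 4 IDs were found. Of these 4, 3 are the DQ members. The other was ENSBTAG00000000169, which the files leave unnamed, with 1 and 0 counts in non-pregnant heifers 3 and 5 and between 18 and 132 counts elsewhere (0.944 to 7.53 CPM).

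No gene ID was found in the low heifers alone. This was searched over all 27570 IDs, since the low-count filter removes an ID with counts in only 2 libraries. The count of IDs at 1 CPM or more in non-pregnant heifers 3 and 5 and at or under 3 counts in the other 8 was 0, and so was the count of IDs at least 10-fold higher in both with at least 10 counts in each. These searches do not bear on a gene that some of the other 8 heifers express too. The gene counts of these 2 libraries differed by a chi-square of 33.0 per degree of freedom. Repeat counts of 1 library that differ by sampling noise alone would give about 1. The lowest value for any pair within a group was 20.3.

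IDs whose pattern was most like a member were listed by Pearson's r of log2 CPM over the 10 heifers. For each DQ member the nearest 2 were the other DQ members, with r from 0.97 upwards, and over the 8 heifers with reads these r were the 0.82, 0.48 and 0.45 given above. The ranking depends on the measure. By Spearman's rho over the same 10 heifers, 0 of the 3 nearest IDs of each DQ member were the same, so the other DQ members were no longer nearest. The nearest IDs were not listed again without the 2 low heifers. The next for DQ alpha was ENSBTAG00000050648 (r = 0.95, and 0.81 over the other 8), which stood at 3.73 and 3.48 CPM in non-pregnant heifers 3 and 5 and had a median of 6.16 CPM. It was also the next for the first DQ beta ID (r = 0.95, and 0.66 over the other 8). For the second DQ beta ID the next was ENSBTAG00000006225 (r = 0.96, and 0.78 over the other 8), at 40.6 and 39.5 CPM in the low heifers and at most 58.3 CPM. These IDs were thus lower in the low heifers by far less than the DQ members.

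The most opposite ID to DQ alpha and to the first DQ beta ID was ENSBTAG00000007096, with r of -0.92 and -0.94. It stood at 4.70 and 4.85 CPM in non-pregnant heifers 3 and 5, the highest values of the 10, and its median was 2.52 CPM. Over the other 8 heifers its r was -0.29 with DQ alpha and -0.55 with the first DQ beta ID. For the second DQ beta ID the most opposite was ENSBTAG00000001354 (r = -0.92, and -0.39 over the other 8), at 11.3 and 11.2 CPM in the low heifers and a median of 6.91 CPM.

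DRB3 had a different set of likenesses. The ID most like it was ENSBTAG00000002187 (r = 0.98, and 0.99 over the 8 heifers with DQ alpha reads), which ran from 92.6 to 126 CPM. ENSBTAG00000012880 (r = 0.95) ran from 12.9 to 18.5 CPM and ENSBTAG00000051798 (r = 0.94) from 2.85 to 5.92 CPM. The most opposite were ENSBTAG00000049801, ENSBTAG00000013562 and ENSBTAG00000017694, each at r = -0.94. DRB3 had r of 0.24 with DQ alpha, 0.23 with the first DQ beta ID and 0.33 with the second over the 10 heifers. These r values describe at most 10 libraries. The IDs other than the members were picked from 14165 as the most like or most opposite to DRB3.

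Among the 8 heifers with DQ alpha reads, the proportions of the DQ IDs differed by more than counting error. Libraries of a group differed in the same sense over all gene IDs (chi-square per degree of freedom of at least 20.3), and other pairs of IDs were not compared, so the differences only describe these animals. Gene lengths were not used, so each ratio below is compared between heifers only and says nothing of which gene has the higher level. The second DQ beta ID took 40.5% of the counts of both DQ beta IDs in pregnant heifer 1 (95% exact Clopper-Pearson interval 37.7% to 43.3%), 29.9% in pregnant heifer 2, 38.3% in pregnant heifer 3, 16.2% in pregnant heifer 4 (14.5% to 18.0%) and 41.4% in pregnant heifer 5 (39.5% to 43.3%). It took 27.4%, 25.3% and 23.1% in non-pregnant heifers 1, 2 and 4. Pregnant heifer 4 stood below all others, and pregnant heifers 1, 3 and 5 formed the upper end. Of the 28 pairs among these 8 heifers, 22 had intervals that did not overlap. In non-pregnant heifers 3 and 5 all 12 and all 14 DQ beta counts were of the second ID, which allows a share as low as 73.5% and 76.8%.

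The ratio of DQ alpha counts to counts of the first DQ beta ID also differed between heifers. It was 3.64, 2.50, 1.89, 2.45 and 3.66 in pregnant heifers 1 to 5 and 2.82, 3.09 and 2.86 in non-pregnant heifers 1, 2 and 4. The intervals did not overlap in 23 of 28 pairs of heifers. Pregnant heifers 1 and 5 were highest and pregnant heifer 3 lowest, and the highest ratio was 1.93 times the lowest. The ratio had no value in non-pregnant heifers 3 and 5.

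DQ alpha was also set against DRB3 within each heifer. Its counts were 16.9%, 16.1%, 12.3%, 17.5% and 16.0% of the DRB3 counts in pregnant heifers 1 to 5. In non-pregnant heifers 1 to 5 they were 35.0%, 17.4%, 0%, 25.2% and 0%. The 3 non-pregnant heifers with reads thus ranged from within the pregnant values to well above them, and the intervals were apart in 22 of 28 pairs. The counts of the first DQ beta ID followed, from 4.38% to 7.14% of DRB3 in pregnant heifers and at 12.4%, 5.64% and 8.81% in non-pregnant heifers 1, 2 and 4. Those of the second DQ beta ID ran from 1.38% to 4.04% in pregnant heifers and from 0.0686% to 4.69% in non-pregnant heifers. Among heifers with reads, DQ alpha as % of DRB3 had an SD of 2.01 in 5 pregnant and 8.81 in 3 non-pregnant heifers. Both DQ beta IDs as % of DRB3 also had the lower SD in pregnant heifers. The ratios above went the other way. The SD was 10.6 and 2.14 for the share of the second DQ beta ID, and 0.784 and 0.144 for DQ alpha over the first. Whether the groups differ in these proportions or in their spread was not tested.

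**Figure D4:**
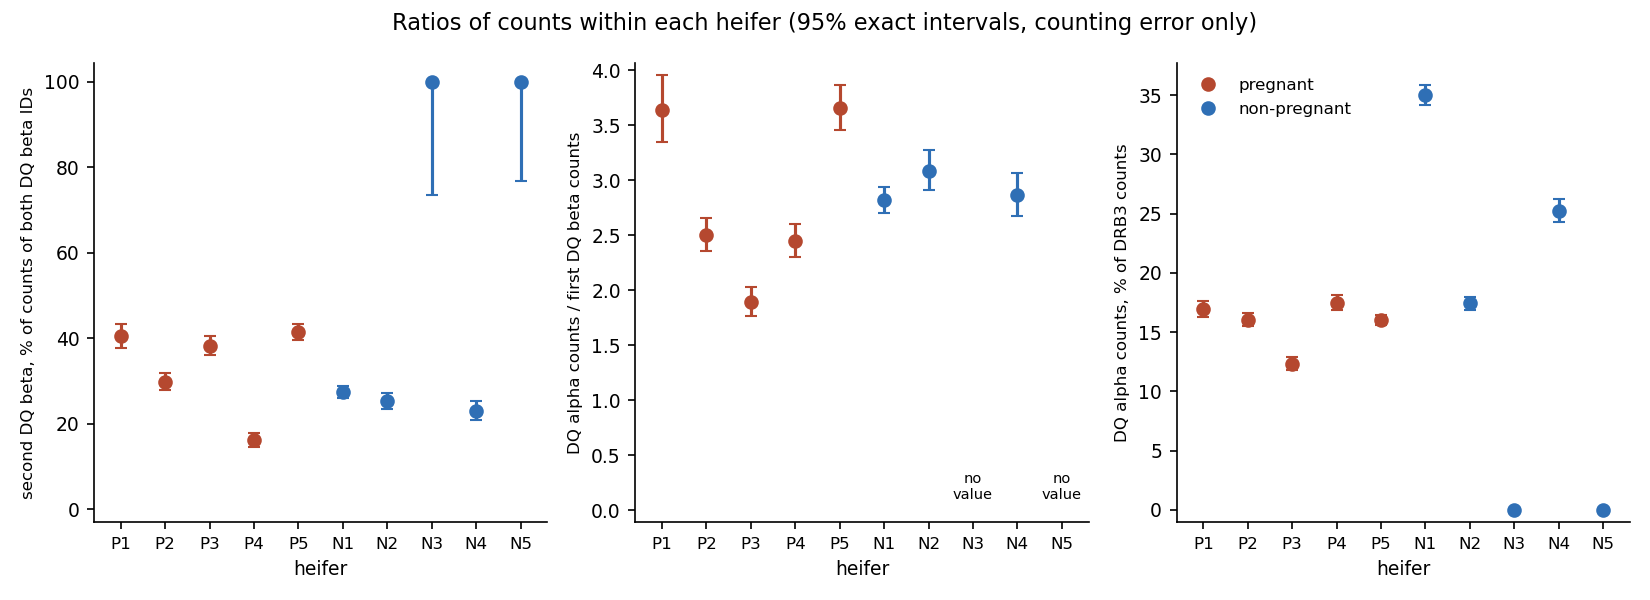
Share of the second DQ beta ID in the counts of both DQ beta IDs (%), ratio of DQ alpha to first DQ beta counts, and DQ alpha counts as % of DRB3 counts, for pregnant (P) and non-pregnant (N) heifers, with 95% exact intervals that cover counting error only. P4 is lowest in the left panel among heifers with both DQ beta IDs, and N1 is highest in the right panel at 35.0%.

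The study compares pregnant with non-pregnant heifers, and none of the 4 IDs passed the test of that comparison. edgeR's quasi-likelihood test called 0 of the 4, and 0% of all 14165 tested IDs, at a Benjamini-Hochberg adjusted p under 0.05; 715 IDs had an unadjusted p under 0.05, and DESeq2 called 5 IDs over all genes, none of them a member. The ranges of the groups overlapped for all 4 members, where 0.953% of tested IDs had ranges that did not. The members were not chosen on this contrast, but their values in the 2 groups were known when they were chosen.

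The mean level of DQ alpha was 195 ± 67.0 CPM with pregnancy and 179 ± 179 CPM without (SD, n = 5 each). The log2 ratio of pregnant over non-pregnant was 0.12 (SE 1.45), with an adjusted p of 0.999 by edgeR. Its 95% interval ran from -3.18 to 3.42, so a large difference in either direction was not excluded with these animals. The first DQ beta ID averaged 70.4 ± 17.1 and 61.7 ± 62.6 CPM, with a log2 ratio of 0.19 and an interval from -2.79 to 3.17. The second DQ beta ID averaged 36.2 ± 17.2 and 21.8 ± 22.8 CPM, with a log2 ratio of 0.73 and an interval from -1.55 to 3.01. The adjusted p by edgeR was 0.999 for both.

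The sign of the DQ alpha and first DQ beta values rested on single animals. Non-pregnant heifers 3 and 5 were also left out together, an exclusion made on the measured levels themselves, so it gives values and no test. The log2 fold change was then -0.62 for DQ alpha, -0.55 for the first DQ beta ID and 0.012 for the second. With only heifer 3 or only heifer 5 of these left out it was -0.20 either way for DQ alpha and -0.13 for the first DQ beta ID, and without pregnant heifer 5 it was -0.10 for DQ alpha. The mean difference of log2 CPM, in which zeros weigh more, was 3.91 for DQ alpha, 3.38 for the first DQ beta ID and 2.07 for the second. By the two-sided exact permutation test these gave p = 0.421, 0.405 and 0.230 in that order (the smallest that 5 against 5 can give is 0.00794).

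DRB3 gave the most precise comparison. Its mean was 1239 ± 401 CPM with pregnancy and 1137 ± 267 CPM without (SD, n = 5 each). The log2 ratio was 0.12 (SE 0.22), with a 95% interval from -0.34 to 0.59 and an adjusted p of 0.999 by edgeR. The exact two-sided permutation p on log2 CPM was 0.667. Without pregnant heifer 5, the highest library, the log2 ratio was -0.092.

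**Figure D5:**
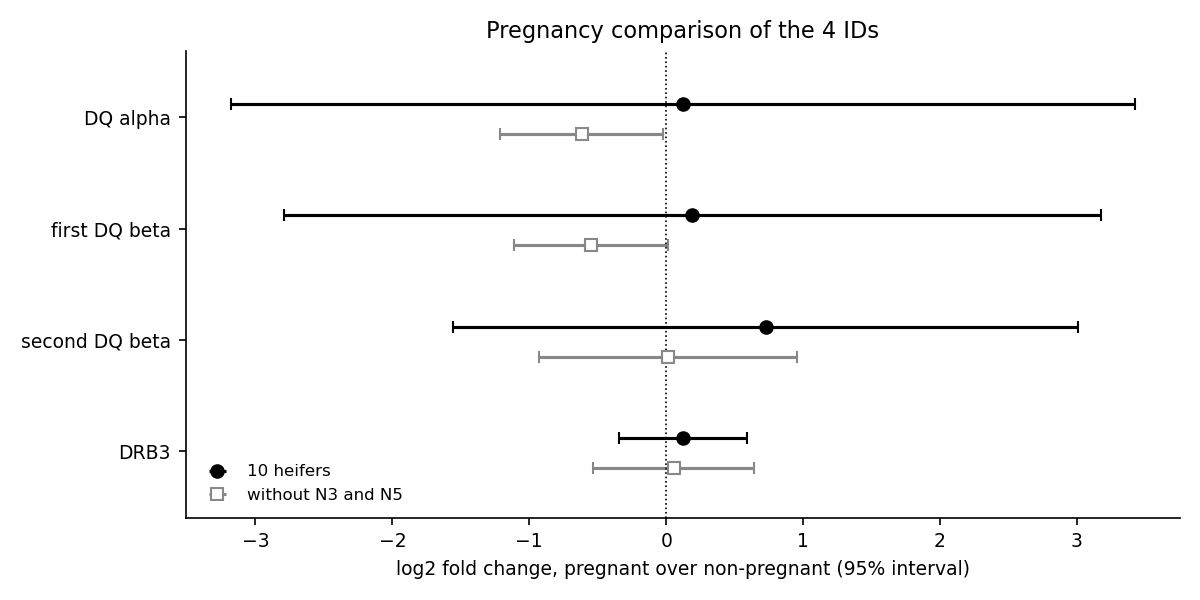
Log2 fold change of each ID, pregnant over non-pregnant, with 95% intervals from edgeR, for all 10 heifers (filled circles) and without non-pregnant heifers N3 and N5 (open squares). With 10 heifers all 4 intervals span 0, from the widest for DQ alpha (-3.18 to 3.42) to the narrowest for DRB3 (-0.34 to 0.59). N3 and N5 were left out for their levels of these same IDs, so the open squares are description and no test.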

How the data were processed

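Counts per Ensembl gene ID in white blood cell RNA of 10 heifers were used as the authors deposited them, 1 table of raw counts per animal. Tools listed in the submitters' processing notes are HISAT2, HTSeq, FastQC 0.11.7 and Trim Galore 0.4.4, with build ARS-UCD1.2. The strand setting, the release of the annotation and the treatment of reads with several matches were not given in the sources used here. IDs were kept by edgeR's filterByExpr (minimum count 10, minimum total 15), scaled by TMM and tested over all 14165 IDs with edgeR 4.0.16's quasi-likelihood test with robust dispersion (limma 3.58.1, R 4.3.3), Benjamini-Hochberg adjustment and a threshold of 0.05. SE is the absolute log2 fold change over the square root of F. Log2 CPM used a prior count of 2. Alternatives were DESeq2 1.42.0, quality-weighted limma-voom, other scalings and filters, and each animal left out. The fit was tested on simulated data.

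The named IDs are the 4 members, the 3 tested IDs most like and most opposite to each by Pearson's r, and IDs low or high in exactly the libraries where a member is missing; ENSBTAG00000000169 was named after its values were seen. The members, the gene lists and these rules were chosen with earlier results of these data known. The 12 gene lists (class II and class I pathways, leukocyte, erythroid and platelet markers) were not analysed here, since no ID was matched to a symbol (0). No 2 libraries of a group agreed within sampling noise (lowest chi-square per degree of freedom 20.3 over 20 pairs).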

Additional observations from a re-analysis of the deposited data

Results flagged for a closer look

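Dixon's rule for the extreme value was applied to 17 sets of 5 values. These were levels and ratios of the 4 IDs within each group, and 2 sets were marked. Chance marks about 1 in 20 independent sets, but these sets share counts and the IDs were chosen on their levels. The marks thus only point to values for a closer look and test nothing. The first DQ beta ID (ENSBTAG00000038128) stood at 40.8 CPM in pregnant heifer 1, where the 4 other animals of the group ran from 73.9 to 84.0 CPM, a gap over range of 0.767. DQ alpha (ENSBTAG00000009656) counts were 12.3% of DRB3 counts in pregnant heifer 3, where the rest of the group ran from 16.0% to 17.5%, a gap over range of 0.716, close to the critical value of 0.71. In the non-pregnant group the zeros of heifers 3 and 5 were not marked, since a pair of equal low values leaves no gap.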

How the results depend on the processing

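None of the 4 IDs passed an adjusted p of 0.05 in any of their alternatives; the lowest adjusted p was 0.353, for the first DQ beta ID (ENSBTAG00000038128) by limma-voom. The count of 0 IDs called over all genes was the same in 18 of 19 alternatives and became 5 with DESeq2; the cause was not tested. With single animals left out, the log2 fold change (pregnant over non-pregnant) ranged from -0.20 to 0.69 for DQ alpha (ENSBTAG00000009656), from -0.13 to 0.80 for the first DQ beta ID, from 0.42 to 1.44 for the second (ENSBTAG00000021077) and from -0.092 to 0.26 for DRB3 (ENSBTAG00000013919). The lowest of these was without non-pregnant heifer 5 and the highest without non-pregnant heifer 1 for each DQ ID. For DRB3 they were without pregnant heifer 5 and without non-pregnant heifer 2. Without both non-pregnant heifers 3 and 5, an alternative chosen after seeing the data, the sign turned for DQ alpha (-0.62) and the first DQ beta ID (-0.55). limma-voom, which fits log values and here also weights libraries by quality, gave 5.67 for DQ alpha, 5.05 for the first DQ beta ID and 2.29 for the second. The unweighted mean differences of log2 CPM were 3.91, 3.38 and 2.07, and the cause of the rest was not tested. In that order, the unadjusted p was 0.011, 0.010 and 0.029 by limma-voom, and 0.94, 0.89 and 0.49 by edgeR. The number of heifers with at most 3 counts was 2 for DQ alpha and for the first DQ beta ID and 0 for the other IDs, and did not change with a limit of 0 or of 10 counts. By Spearman's rho in place of Pearson's r, 0 of the 3 most similar IDs were the same for each DQ ID and 1 of 3 for DRB3; with library totals only, 2 of 3 were the same for each of the 4. No paired analysis was possible because the labels link no animals between groups. Whether the intervals of the DQ IDs are limited by the spread between animals or by depth was not tested.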
